A study of Mus musculus with 4 samples.

Results

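Thymic invariant natural killer T (iNKT) cells that carried markers of both the iNKT1 and the iNKT2 subset were examined, cell by cell, in BALB/c and B6 mice. A cell was chosen by its unique molecular identifiers (UMIs, each a distinct captured RNA molecule) over 2 sets of 5 genes. Sum A counted Zbtb16, Il17rb, Izumo1r, Plac8 and Icos, and sum B counted Nkg7, Klrd1, Il2rb, Klrk1 and Xcl1. A mixed cell had at least 5 UMIs in each sum, neither sum above 2 times the other, fewer than 6 UMIs over 7 iNKT17 genes and fewer than 4 UMIs over 6 proliferation genes. This left 1255 mixed cells of 15767 cells that passed the quality limits (at least 500 genes, at least 1000 UMIs and at most 10% mitochondrial UMIs). There were 38 in BALB/c 1, 73 in BALB/c 2, 167 in B6 1 and 977 in B6 2, and runs of 4 values below follow this order of libraries.

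The cells were sorted live from thymus by CD3 and by binding of a CD1d reagent carrying the lipid PBS57, and were sequenced as single cells with a 10x Genomics 5' kit. The 2 groups are inbred strains, BALB/c and B6, with 2 libraries each; the labels name no age, sex, treatment or number of mice, so pooled mice or 1 mouse behind both libraries of a group remain possible. The p-values therefore measure the spread between these libraries, which may be technical. The libraries held 2038 to 9732 barcodes and 20406245 to 82904358 UMIs, the highest of both in B6 2, and 4 to 33 barcode sequences were shared between any 2 libraries. B6 2 also stood apart in its file header, which names Cell Ranger 7.1.0 where the other 3 headers name 6.0.0, so the values without B6 2 are given where they bear on a result.

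iNKT cells recognise lipids on CD1d through a nearly invariant T cell receptor alpha chain and mature in the thymus into effector subsets. iNKT1 cells depend on the transcription factor T-bet (Tbx21), respond to interleukin 15 through Il2rb, carry natural killer receptors and make interferon gamma. iNKT2 cells have high PLZF (Zbtb16), make interleukin 4 in the thymus and lack most natural killer receptors. BALB/c thymus is known for many iNKT2 cells and B6 thymus for mostly iNKT1 cells. Cells with features of both subsets are of interest because both subsets arise from common thymic precursors.

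The genes behind the 2 sums were not used evenly. Among mixed cells, sum A came mainly from Izumo1r, which encodes folate receptor 4, from Icos, a costimulatory receptor, and from Zbtb16: Zbtb16 was detected in 94.7%, 86.3%, 78.4% and 88.8% of mixed cells. Plac8, which is among the genes that name the population, was detected in only 7.89%, 4.11%, 24.6% and 18.9% of them, and Il17rb, the receptor for interleukin 25, in 5.26%, 8.22%, 12.6% and 13.6%. So the iNKT2 part of the label rests on Zbtb16, Izumo1r and Icos, and hardly on Plac8 or Il17rb.

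Sum B was made up differently in the 2 strains. Nkg7, a granule protein of cytotoxic lymphocytes, supplied 21.1% and 27.4% of sum B in BALB/c 1 and 2, and 44.0% and 42.5% in B6 1 and 2. Klrd1, the CD94 chain of inhibitory and activating natural killer receptors, supplied 32.4% and 27.7% in BALB/c against 13.0% and 12.0% in B6. Il2rb, the shared receptor chain for interleukins 2 and 15, supplied 24.9%, 27.1%, 32.2% and 30.1%. Mixed cells of BALB/c were thus more often chosen through Klrd1, and those of B6 through Nkg7. These are genes of the choice itself and are given without a test.

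For comparison, cells with A+B of at least 10 and B above 2 times A, under the same iNKT17 and proliferation limits, are called iNKT1-side (7673 cells), and those with A above 2 times B are called iNKT2-side (2817 cells). Cells with sums close to each other were fewer, bin for bin, than cells at either end. Over cells with A+B of at least 10, the share of B in A+B was under 5% in 44.1%, 28.2%, 4.12% and 5.99% of cells, and at least 95% in 12.8%, 22.4%, 32.2% and 20.97%. The 5-point bins from 35% to 65% held 0.185% to 0.554% each in BALB/c 1, 0.634% to 1.19% in BALB/c 2, 0.973% to 2.06% in B6 1 and 1.17% to 2.49% in B6 2, fewer than either end bin of the same library. In B6 the bins from 50% to 65% held 1.60% to 2.06% each (B6 1) and 1.98% to 2.49% (B6 2). That was more than the bins from 15% to 35%, at 0.859% to 1.03% and 1.14% to 1.85%. The mixed class is a range cut from these sums, and the histogram of the same sums does not show whether its cells form a type.

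**Figure D1:**
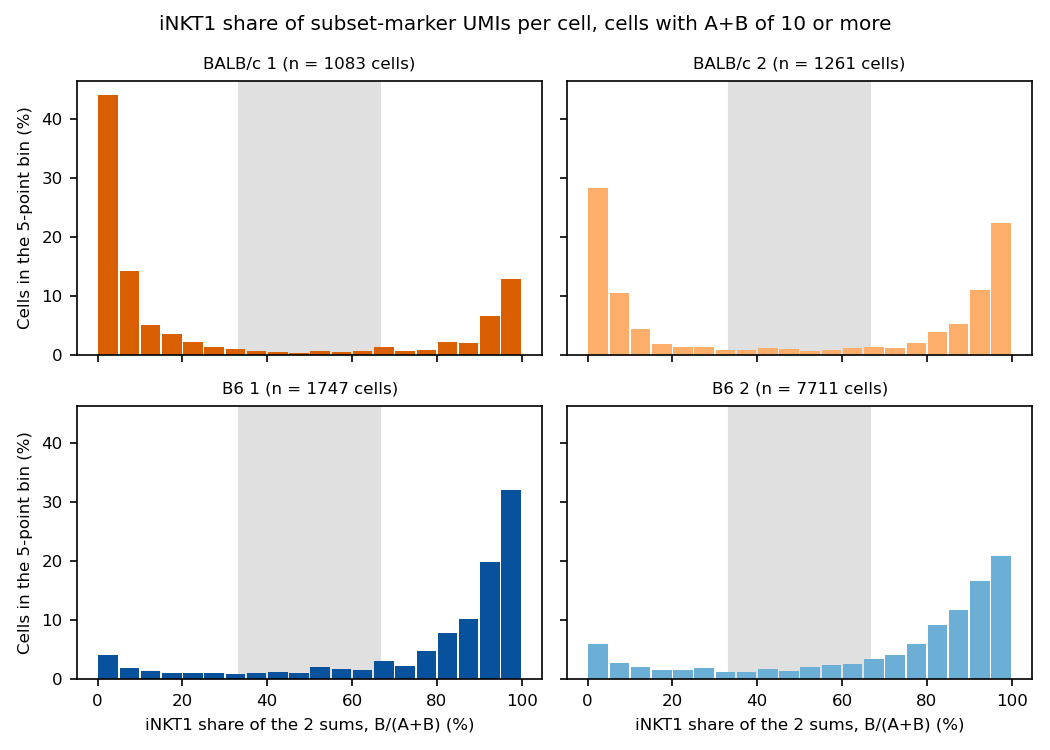
Histogram per library of the share of sum B in A+B (horizontal axis, percent, in 5-point bins) over cells with A+B of at least 10, with the percent of cells on the vertical axis; the grey band marks the range allowed by the limit of 2 between the sums. Peaks stand at both ends in the BALB/c libraries and mainly at the right in the B6 libraries, and the bins from 35% to 65% are lower than both end bins in each library.

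Many members lay near a limit. In the order of libraries given above, 23, 32, 68 and 418 members had sums that differed by more than 1.5 times, and 14, 18, 52 and 287 cells lay just outside, at more than 2 and up to 2.5 times. The smaller sum was exactly 5 in 8, 4, 14 and 89 members, while 6, 4, 10 and 55 otherwise eligible cells had a smaller sum of 4. The iNKT17 and proliferation limits kept out 16, 9, 19 and 94 further cells. Those kept out were deep, with a median of 13772 UMIs in BALB/c 1 and 31954 in BALB/c 2.

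Mixed cells took a smaller share of the BALB/c libraries than of the B6 libraries. They made up 2.00% and 3.75% of the cells of BALB/c 1 and 2 and 7.02% and 10.2% of those of B6 1 and 2. The means were 2.88% ± 1.23 (SD, n = 2) in BALB/c and 8.63% ± 2.27 (SD, n = 2) in B6. Both B6 libraries lay above both BALB/c libraries, and the difference was -5.75 percentage points. A two-sided exact permutation test gave p = 0.3333, which is the smallest p that 2 against 2 libraries allow.

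The order of the libraries was the same on a narrower denominator and at equal depth. Among cells with A+B of at least 10, mixed cells made up 3.51%, 5.79%, 9.56% and 12.7%. When each cell was thinned to 5000 UMIs and chosen anew, the shares were 1.22%, 3.38%, 7.07% and 9.96% of 1555, 1597, 1796 and 7433 cells, with 341, 350, 582 and 2113 shallower cells left out. The libraries of the strains did not overlap on either count, with differences of -6.47 and -6.21 points and p = 0.3333 in each exact permutation test. Without B6 2 the difference over all kept cells was -4.15 points, from a single B6 library.

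**Figure D2:**
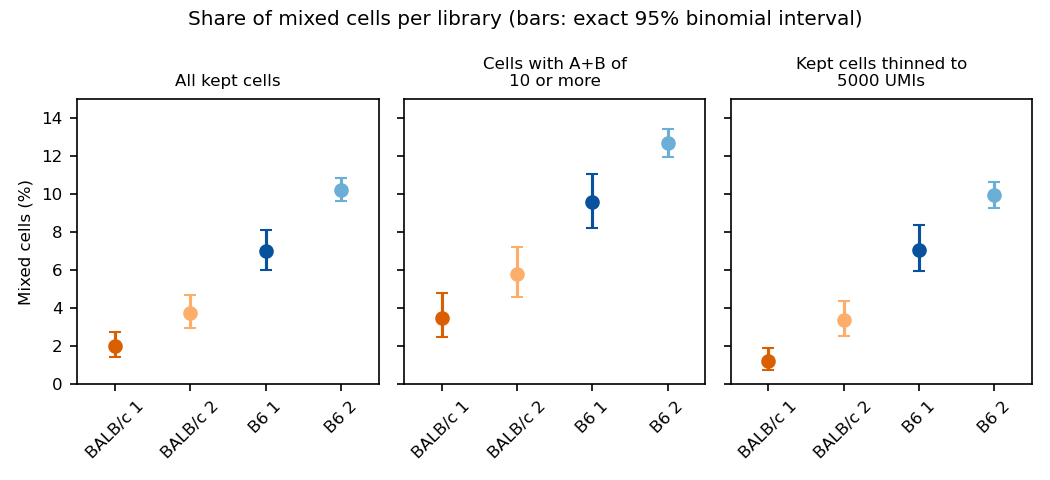
Percent of mixed cells (vertical axis) in each library (horizontal axis), over all kept cells, over cells with A+B of at least 10, and over cells thinned to 5000 UMIs; points are libraries and bars are exact 95% binomial intervals, which cover counting error only. In each panel the 2 B6 points lie above the 2 BALB/c points.

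Depth and droplets with more than 1 cell bear on who is called mixed, so their measures are given next. Mixed cells had median totals of 10722, 8759, 7842 and 7386 UMIs, against 6612, 6885, 7120 and 6888 in iNKT1-side cells and 14997, 15350, 12490 and 12671 in iNKT2-side cells. They thus lay between both sides, close to the iNKT1 side in B6, and reached only 0.496, 0.394, 0.400 and 0.378 of the sum of the 2 sides' medians. Membership itself was sensitive to depth: of members with at least 5000 UMIs, 13 of 35, 44 of 73, 103 of 151 and 582 of 806 were chosen again after thinning.

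A doublet score was high in more mixed cells than cells of either side in all 4 libraries. Scrublet, which scores how closely a barcode resembles the sum of 2 simulated neighbours, put 15.8%, 12.3%, 4.79% and 10.6% of mixed cells among the highest scores of their library. The corresponding shares were 1.81%, 1.54%, 2.61% and 9.47% of iNKT1-side cells and 1.31%, 1.16%, 1.02% and 3.82% of iNKT2-side cells. The cut-off took a larger share of larger libraries, with 1.69%, 1.75%, 2.10% and 7.92% of all kept cells. Mixed cells thus stood further above this base share in BALB/c than in B6. Without the highest-scoring barcodes the mixed share was 1.72%, 3.35%, 6.83% and 9.93% of kept cells.

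The T cell receptor beta chain gives a count that does not rest on the 2 sums, though it misses droplets whose cells share a segment. At 5000 UMIs per cell, 2 or more Trbv segments with at least 2 UMIs each were found in 8.57%, 5.48%, 8.61% and 17.7% of mixed cells. iNKT1-side cells gave 11.0%, 9.07%, 10.7% and 12.1%, and iNKT2-side cells 8.85%, 7.83%, 13.7% and 13.8%. In the other 3 libraries the mixed share lay below both sides. In B6 2 it lay above both, with an exact 95% interval of 15.2% to 20.6% against 11.2% to 13.0% on the iNKT1 side and 11.9% to 15.97% on the iNKT2 side. At full depth the mixed shares were 23.7%, 13.7%, 16.2% and 26.3%. Their strain difference of -2.54 points (p = 0.667, exact permutation test) changed sign when 1 library was left out, to 2.45 without BALB/c 2 and 2.52 without B6 2. Without cells that had 2 or more segments, mixed cells made up 1.92%, 4.16%, 7.19% and 9.57% of the remaining cells.

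**Figure D3:**
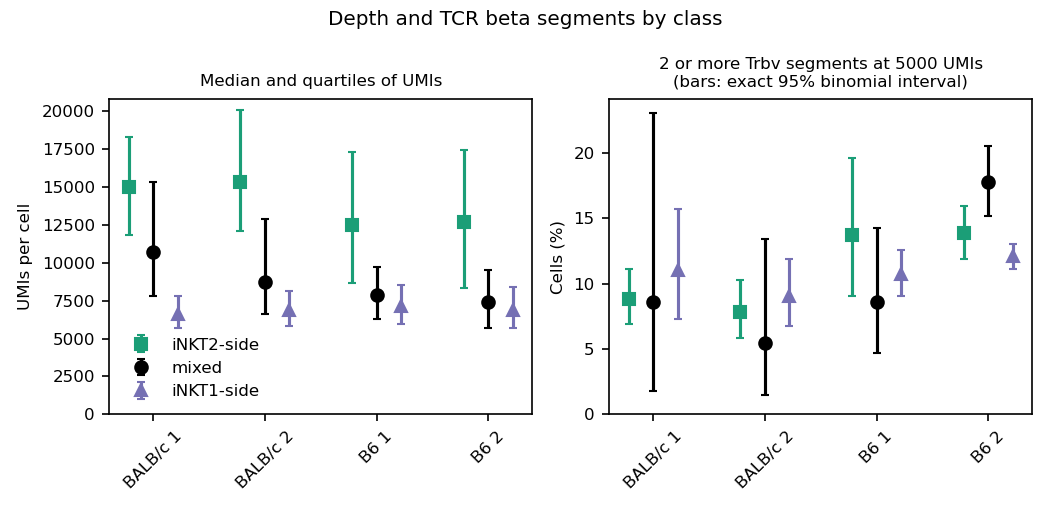
Left, UMIs per cell (vertical axis; symbols are medians and bars quartiles) of the 3 classes in each library; right, percent of cells with 2 or more Trbv segments at 5000 UMIs, with exact 95% binomial intervals. Mixed cells lie between the sides in depth, and in B6 2 their Trbv share of 17.7% lies above both sides.

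Mixed cells mostly used the beta chain segments that are known to mark iNKT cells. Of mixed cells with a leading segment, 72.2%, 57.1%, 59.9% and 67.1% used Trbv13 (the V beta 8 family), 16.7%, 22.9%, 19.8% and 18.9% used Trbv29 (V beta 7), and 8.33%, 17.1%, 14.8% and 9.68% used Trbv1 (V beta 2). Trbv13 led in 68.5% to 72.0% of iNKT1-side cells and 59.4% to 69.0% of iNKT2-side cells. It led in 28.5%, 24.1%, 16.6% and 23.2% of cells gated as double-positive thymocytes, the CD4 and CD8 positive precursors that also reached these libraries. That gate took cells with at least 5 UMIs over Cd8b1, Cd8a, Rag1, Dntt and Arpp21 and fewer than 5 in sums A and B. Each library's mixed share of Trbv13 lay above that of its double-positive gate.

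Markers of other cell types were rare in mixed cells, apart from genes that iNKT2 cells also express. The 5 double-positive markers summed to 11.4, 5.29, 4.77 and 26.5 CPM (the UMIs of a gene over all UMIs of that class of cells, on the usual CPM scale), with Dntt and Arpp21 at 0 in both BALB/c libraries, and 7 members of B6 2 reached 5 such UMIs. The 5 B cell markers summed to 2.28, 275, 1.36 and 1.82 CPM, the high value coming from BALB/c 2, where 2 members had at least 5 such UMIs and 1 cell had 105; Ms4a1 was at 0 in the other libraries. The 5 myeloid markers summed to 2.06 to 7.94 CPM, with Lyz2 at 0 in all 4 libraries, and no member reached 5 UMIs. The 5 natural killer cell markers summed to 9.26 to 32.0 CPM, against 79.6 to 199 in iNKT1-side cells, with Ncr1 at 0 in 3 libraries. Leaving out the members with B cell, double-positive or myeloid markers, a choice made after they were seen, gave a mixed share of 3.65% in BALB/c 2 and 10.2% in B6 2.

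Genes of gamma-delta T cells were another matter. The list of Trdc, Tcrg-C1, Tcrg-C2, Tcrg-C4 and Sox13 summed to 886, 635, 329 and 322 CPM in mixed cells, close to 776, 565, 321 and 352 CPM in iNKT2-side cells. In iNKT1-side cells it summed to 320, 279, 296 and 272 CPM, so in B6 the sums of all classes were near each other. The gamma constant genes and Sox13 carried these sums, while Trdc, the delta chain constant gene that defines gamma-delta cells, had 0, 0, 1 and 5 UMIs. At least 5 UMIs over the list were found in 65.8%, 50.7%, 25.7% and 19.3% of mixed cells. The shares were 72.3%, 66.6%, 36.7% and 37.1% on the iNKT2 side and 9.03%, 13.2%, 15.5% and 13.6% on the iNKT1 side. These shares are at full depth, which differed between the classes. The regulatory T cell list summed to 131 to 222 CPM, with Foxp3 at 0 in 3 libraries.

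Outside the 10 genes of the sums, mixed cells held iNKT1 genes at levels between the sides, and nearer the iNKT1 side in B6 than in BALB/c. These levels belong to the contrast by which the cells were chosen and are given as a description, without a test. Over 26 iNKT1 genes that the choice did not use, mixed cells summed to 3630, 4053, 7033 and 6907 CPM. That was 18.4%, 24.8%, 43.4% and 46.1% of the way from the iNKT2 side to the iNKT1 side. Sum B itself, used in the choice, was 24.6%, 28.2%, 39.7% and 41.8% of that way. The per-cell values showed the same order: at 5000 UMIs the median mixed cell had 17, 20, 31 and 32 UMIs over 24 of these genes (without Klrb1c and Ly6c2, which differ greatly between the strains), against 47 to 48 in iNKT1-side cells and 8 to 15.5 in iNKT2-side cells.

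Tbx21, the master regulator of iNKT1 cells, had 36.5, 60.9, 137 and 164 CPM in mixed cells. iNKT1-side cells had 169, 143, 154 and 193 CPM and iNKT2-side cells 7.52, 5.97, 40.6 and 48.6 CPM. Mixed cells of B6 thus came near the iNKT1 level. Those of BALB/c lay above the iNKT2 side but further below the iNKT1 side. Cxcr3, the chemokine receptor of type 1 T cells, showed this too, with 119, 144, 328 and 339 CPM in mixed cells against 235, 220, 300 and 326 on the iNKT1 side. At 5000 UMIs Cxcr3 was detected in 37.1%, 43.8%, 78.1% and 77.5% of mixed cells. The shares were 61.9%, 63.9%, 75.3% and 78.2% on the iNKT1 side and 5.42%, 7.33%, 38.5% and 38.2% on the iNKT2 side. At 5000 UMIs both Zbtb16 and Tbx21 were detected in 14.3%, 23.3%, 32.5% and 43.1% of mixed cells, in 14.4%, 13.2%, 13.0% and 23.8% of iNKT1-side cells and in 2.91%, 2.67%, 13.2% and 16.9% of iNKT2-side cells. Zbtb16 is a gene of the choice, so the choice itself bears on the joint share. Tbx21, with or without Zbtb16, was detected in 7 of 35 mixed cells of BALB/c 1 and in 34.2%, 48.3% and 55.0% of those of the other libraries, below the 49.2%, 50.5%, 48.7% and 57.7% of iNKT1-side cells in each library. In the double-positive gate, 0 cells of 13, 37, 27 and 35 had both at that depth; before thinning its median depth was 2363 to 3081 UMIs, and the unthinned joint share in mixed cells was 23.7%, 37.0%, 46.7% and 57.8%.

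Effector genes of mature iNKT1 cells stayed well below the iNKT1 side, except that Ifng in B6 was nearer to it. Gzmb, a cytotoxic protease, had 9.13, 37.1, 76.9 and 98.3 CPM in mixed cells against 317, 417, 514 and 604 CPM in iNKT1-side cells. Klre1, a natural killer receptor, had 15.98, 2.65, 7.49 and 23.9 CPM against 83.0, 92.8, 172 and 165. Ifng had 6.85, 9.26, 15.7 and 11.8 CPM against 95.1, 65.6, 27.3 and 30.7. In each library these 3 genes lay below the iNKT1 side. Ccl5, a chemokine of cytotoxic cells, had 283, 43.7, 76.3 and 66.2 CPM against 3346, 2292, 864 and 510; in BALB/c 1 the value came from 124 UMIs in 6 of 38 cells.

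Most iNKT2 genes outside the choice were between the sides as well, but in BALB/c their sum lay nearer the iNKT1 side. Over the 14 genes of this list, Ltb included, the sum in mixed cells was 93.9%, 72.9%, 44.7% and 55.8% of the way from the iNKT2 side to the iNKT1 side. In thinned cells the median mixed cell had 7, 8, 8 and 8 UMIs over the list. The medians were 7, 7, 6 and 7 UMIs in iNKT1-side cells and 11, 11, 9 and 9 in iNKT2-side cells. Il4 had 86.8, 123, 112 and 104 CPM in mixed cells, 332, 320, 177 and 250 in iNKT2-side cells and 26.4, 24.8, 48.3 and 62.9 in iNKT1-side cells. Ccr4, a receptor of type 2 T cells, had 86.8, 63.5, 28.6 and 32.6 CPM in mixed cells against 173, 187, 99.8 and 114 on the iNKT2 side. Slamf6, a homotypic receptor needed for iNKT selection, had 101, 93.9, 62.6 and 59.5 CPM against 174, 178, 149 and 161. Lef1, a factor of immature T cells, had 119, 78.1, 128 and 208 CPM against 418, 390, 378 and 469. Il13 was scarce, at 2.28 to 10.5 CPM against 43.6 to 56.8 on the iNKT2 side. Gata3 lay below both sides in BALB/c (59.4 and 49.0 CPM) and between them in B6 (90.6 and 81.6 CPM). Of the 14 genes on the iNKT2 list, 12, 12, 13 and 14 lay between the sides in the 4 libraries; Ltb, also on the list, ran the other way, with more on the iNKT1 side.

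Few mixed cells had Ifng RNA, and so few had both Il4 and Ifng. At 5000 UMIs, Il4 was detected in 28.6%, 30.1%, 32.5% and 35.6% of mixed cells and Ifng in 2.86%, 4.11%, 4.64% and 3.47%. Both were detected in 0 of 35, 0 of 73, 1 of 151 and 14 of 806 mixed cells; a count of 0 allows up to 8.57% of 35 and 4.11% of 73 cells with UMIs of both, for counting error only. In B6 2 these 14 were among 28 cells with Ifng, and the joint share of 1.74% compares with 2.07% of iNKT1-side cells and 1.72% of all kept cells. In the double-positive gate Il4 was seen in 0%, 2.70%, 0% and 0% and Ifng in 0% of 13, 37, 27 and 35 cells.

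**Figure D4:**
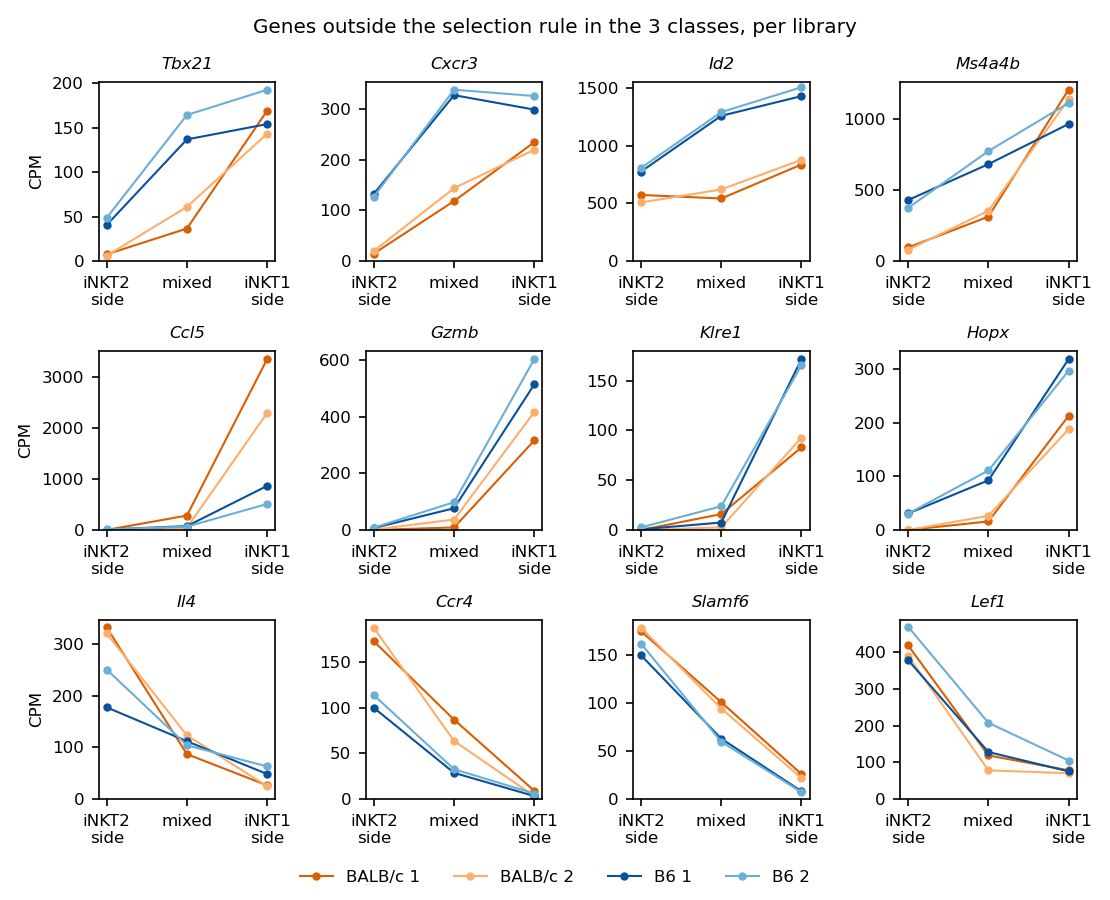
CPM (vertical axis) of 12 genes outside the choice in iNKT2-side, mixed and iNKT1-side cells (horizontal axis), with 1 line per library. Tbx21 and Cxcr3 in mixed B6 cells come near or above the iNKT1 side, while Gzmb, Klre1 and Ccl5 stay low and Il4, Ccr4 and Slamf6 lie between the sides.

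Some genes stood outside the range of the sides. Of 5821 genes with at least 20 CPM in mixed cells, 131 (2.25%) were above both sides in all 4 libraries and 88 (1.51%) below both, in counts that are given without a test. Above both were Tnf, the inflammatory cytokine, at 45.7, 41.0, 31.3 and 24.7 CPM against at most 21.1 in any side class, and Ccr8, a chemokine receptor, at 151, 196, 130 and 149 CPM, in B6 barely above the iNKT1 side (122 and 147 CPM). Klrb1a, an activating natural killer receptor, had 41.1, 43.7, 12.9 and 8.48 CPM against at most 13.2. Tmem154 and Cenpa, the latter a centromeric histone, were also on this side, as were Fhl2, St6galnac3, Fam174b, Eif4e3 and Maf.

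Below both sides were genes of several functions. Samhd1, a nucleotide hydrolase that restricts viruses, had 36.5, 46.3, 64.0 and 105 CPM in mixed cells and at least 95.4 CPM in every side class. Thy1, the T cell surface protein CD90, had 148, 71.5, 351 and 373 CPM against 162, 193, 450 and 477 on the iNKT2 side and 527 to 557 on the iNKT1 side. Myc, the growth regulator, had 116, 107, 99.4 and 139 CPM against 144 to 193. Emp3, Rap2b, Oas3, Taf11, Prpf31, Dmac1 and Orc5 completed the set named by rank.

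The strains were then compared within mixed cells, since the choice used no strain label. Raw UMIs were summed per library over its mixed cells (438028, 755806, 1468836 and 8251884 UMIs) and tested with edgeR's quasi-likelihood test with Benjamini-Hochberg adjustment over 8129 genes. At an adjusted p of 0.05, 178 genes (2.19%) differed, 86 (1.06%) higher and 92 (1.13%) lower in BALB/c; 1213 genes had an unadjusted p under 0.05, and the libraries of the strains did not overlap for 47.6% of genes. Fold changes below are log2 values of BALB/c over B6, and levels are CPM scaled by edgeR's TMM factors, in the order BALB/c 1, BALB/c 2, B6 1, B6 2. Without B6 2, the comparison within the libraries of 1 Cell Ranger version, 199 genes were called, 128 of them among the 178. The count was 59 without BALB/c 1, 49 without BALB/c 2 and 932 without B6 1. Of 42 called genes named here, 16 passed in every alternative that tested them; for other genes described by their levels, the adjusted p is given where the call was lost.

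Of the 26 iNKT1 genes outside the choice, 10 fell and 1 rose in BALB/c, and 15 did not pass; the list's median log2 fold change was -1.04, against -0.03 over all genes. With 1.13% of all genes lower, 10 of 26 stands above the background, but sum B of the choice was also lower in BALB/c mixed cells (1071 and 1242 CPM against 1828 and 1940), and its part in the result was not tested. Tbx21 had 37.9, 64.6, 139 and 156 CPM, a log2 fold change of -1.48 (SE 0.26, adjusted p = 0.0333, edgeR). Both BALB/c libraries lay below both B6 libraries, but the call was lost without BALB/c 1 (adjusted p = 0.221), without BALB/c 2 (0.0738), among members chosen after thinning (0.135) and without the highest doublet scores (0.0604). The count of lower genes on the list was 3 without BALB/c 1, 7 without BALB/c 2, 14 without B6 1 and 12 without B6 2.

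Natural killer receptors were among the calls in both directions: of 21 cytotoxicity and natural killer receptor genes tested, 2 rose and 5 fell, with a median of -0.10. Of all genes tested, 1.06% rose and 1.13% fell. Klrb1c, which encodes NK1.1, an antigen that B6 mice carry and BALB/c mice lack, had 4.73, 2.81, 276 and 276 CPM (log2 -6.27, SE 0.30, adjusted p = 0.000255, edgeR). Cd160, a receptor of cytotoxic lymphocytes, had 9.47, 25.3, 148 and 130 CPM (log2 -2.87, SE 0.34, adjusted p = 0.00813, edgeR; 0.0554 at a ratio limit of 1.5). The strains were far apart in both. Ly6c2 had 37.9, 32.3, 477 and 380 CPM and its neighbour Ly6c1 the reverse, 78.1, 56.2, 6.22 and 2.41. Klra5, an inhibitory Ly49 receptor, had 286, 230, 21.4 and 19.1 CPM (log2 3.69, SE 0.21), and Klra9 3 UMIs in BALB/c against 1539 in B6. Ly49, Ly6c and NK1.1 genes have close relatives among which reads may be split, so these levels are uncertain.

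Transcription factors changed in both directions. Of 20 transcription factors tested, 2 rose (Id3 and Tcf7) and 4 fell (Zfp683, Id2, Tbx21 and Ikzf3, the last named after its value was seen), with a median log2 fold change of -0.29. Among all genes 1.06% rose and 1.13% fell. Id3, an inhibitor of E proteins that is high in early and iNKT2 cells, had 445, 321, 96.0 and 107 CPM (log2 1.90, SE 0.21, adjusted p = 0.00736, edgeR; 0.0508 without BALB/c 1 and 0.104 after thinning). Id2, its counterpart in effector cells, had 563, 660, 1280 and 1226 CPM (log2 -1.03, SE 0.16, adjusted p = 0.0259; 0.406 without BALB/c 1, 0.244 without BALB/c 2 and 0.0521 after thinning). The 2 inhibitors thus ran in opposite directions.

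Tcf7, which encodes TCF-1, had 346, 314, 141 and 152 CPM (log2 1.17, SE 0.17, adjusted p = 0.0179, edgeR; 0.196 without BALB/c 1, 0.133 without BALB/c 2 and 0.0691 at a ratio limit of 1.5). Zfp683, or Hobit, a factor of resident effector cells, had 18.9, 50.5, 194 and 180 CPM (log2 -2.33, SE 0.34, adjusted p = 0.0203; 0.064 without BALB/c 1). Hopx, another factor of effector T cells, had 16.6, 28.1, 94.0 and 105 CPM (log2 -2.10, SE 0.28, adjusted p = 0.0145; 0.0802 without BALB/c 1). All 3 separated the strains without overlap, as did 47.6% of all genes tested.

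Of 11 iNKT2 genes tested, 2 rose in BALB/c (Ccr4 and Pdcd1), none fell and 9 did not pass; 1.06% of all genes rose. The median of 0.09 covers values in both directions, from -1.46 for Ccr9 to 1.36 for Ccr4; Slamf6 had 0.77 and Lef1 -0.70, neither past the test. Ccr4 had 89.9, 67.4, 29.0 and 30.9 CPM (log2 1.36, SE 0.24, adjusted p = 0.0349, edgeR; 0.237 without BALB/c 1 and 0.119 without BALB/c 2). Pdcd1, the inhibitory receptor PD-1, had 189, 159, 89.1 and 88.0 CPM (log2 0.97, SE 0.18, adjusted p = 0.0435; 0.316, 0.168 and 0.0659 without BALB/c 1, BALB/c 2 and B6 2). Both calls were also lost with sums of at least 8 (0.151 and 0.123), after thinning (0.293 and 0.125), at a ratio limit of 1.5 (0.103 and 0.274) and without cells with 2 or more Trbv segments (0.0548 and 0.0867). Il4 had 89.9, 131, 113 and 98.4 CPM, a log2 fold change of 0.09 (SE 0.22, adjusted p = 0.909), so its libraries overlapped. Gata3 had 61.5, 51.9, 91.9 and 77.2 CPM (log2 -0.58, SE 0.22, adjusted p = 0.282) and Ifng 9.83 CPM in BALB/c 2, 15.9 in B6 1 and 11.1 in B6 2, with 3 UMIs in BALB/c 1 (log2 -0.54, SE 0.46, adjusted p = 0.703). Il17a was at 0 in all 4 libraries, and of 3 iNKT17 genes tested only Cxcr6 passed, lower in BALB/c.

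Receptors for cytokines and homing signals changed in both directions: of 24 tested, 3 rose (Ccr7, Ccr4 and Itgae) and 4 fell (Cxcr6, Cxcr3, Ifngr1 and Itgb7), with a median of -0.22. The shares over all genes were 1.06% higher and 1.13% lower. Itgae, Itgb7 and the X-linked Cxcr3 lie outside the naming rule and were named after their values were seen. Cxcr6, a receptor of tissue-homing T cells, had 71.0, 67.4, 271 and 295 CPM (log2 -2.04, SE 0.18, adjusted p = 0.00317, edgeR; 0.0538 without BALB/c 2 and 0.0525 at a ratio limit of 1.5). Ccr7, which guides immature cells, had 42.6, 44.9, 6.22 and 10.8 CPM (log2 2.22, SE 0.34, adjusted p = 0.0243; 0.115 without BALB/c 1, 0.167 without BALB/c 2 and 0.713 after thinning). The library values of each strain were close in both genes. Ifngr1, a chain of the interferon gamma receptor, had 71.0, 91.2, 196 and 178 CPM (log2 -1.18, SE 0.20, adjusted p = 0.0319; 0.300 without BALB/c 1, 0.149 without BALB/c 2, 0.179 after thinning and 0.068 with sums of at least 8).

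Interferon response genes were lower in BALB/c where they differed. Of 38 tested, none rose and 5 fell (Ly6e, Ifi213, Oas1a, Ifit3 and Oasl2, the last named after its value was seen), with a median of -0.53. Among all genes tested, 1.13% fell. Ly6e had 507, 699, 3236 and 2626 CPM (log2 -2.28, SE 0.21, adjusted p = 0.00321, edgeR; 0.072 without BALB/c 1). Oas1a, a sensor of viral RNA, had 0 UMIs in BALB/c mixed cells and 455 in B6, at least 18.6-fold lower if 3 UMIs are taken as the limit over both BALB/c libraries. Ifit3 had 21.3, 21.1, 75.3 and 104 CPM (log2 -2.10, SE 0.29, adjusted p = 0.0164; 0.0998 without BALB/c 1, 0.131 without BALB/c 2, 0.104 after thinning, 0.113 at a ratio limit of 1.5 and 0.0592 without cells with 2 or more Trbv segments). In the BALB/c side classes Oas1a was at 0 and Ifi213 at most 3.17 CPM.

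Heat shock genes were higher in BALB/c. Of 18 heat shock and immediate early genes tested, 8 rose, all of them chaperones, and none fell, with a median of 0.67. For comparison, 1.06% of all genes rose. Hspa1a, the inducible HSP70, had 61.5, 215, 4.84 and 4.13 CPM (log2 5.05, SE 0.58, adjusted p = 0.0078, edgeR), and its near-identical copy Hspa1b 104, 330, 6.91 and 7.35 CPM; reads may be split between the pair. Hsph1 had 204, 285, 64.3 and 87.2 CPM (log2 1.68, SE 0.24, adjusted p = 0.0179; 0.131 without BALB/c 2), and Hsp90aa1 464, 554, 195 and 236 CPM (log2 1.24, SE 0.18, adjusted p = 0.0217; 0.131 without BALB/c 1 and 0.198 without BALB/c 2). Without BALB/c 1, 4 genes of the list were higher and without BALB/c 2, 2; without B6 1, 10 were higher and 4 lower. Hspa1a was also higher in BALB/c on the iNKT1 side (log2 4.32) and the iNKT2 side (log2 4.33).

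Survival genes fell where they passed: Gimap3, Gimap5 and Bcl2, 3 of 18 tested, with none higher and a median of -0.55. By comparison, 1.13% of all genes fell. Bcl2, the anti-apoptotic protein, had 23.7, 36.5, 86.4 and 128 CPM (log2 -1.80, SE 0.31, adjusted p = 0.0328, edgeR; 0.221 without BALB/c 1 and 0.127 without BALB/c 2). Gimap3, a GTPase of lymphocyte survival, had 123, 163, 384 and 340 CPM (log2 -1.33, SE 0.20, adjusted p = 0.0217; 0.271 and 0.119 without the same libraries). Gimap5 had 80.5, 95.5, 225 and 174 CPM (log2 -1.16, SE 0.21, adjusted p = 0.0400; 0.356 and 0.217). After thinning the 3 calls were lost too, with adjusted p of 0.793 for Bcl2, 0.362 for Gimap3 and 0.287 for Gimap5. Bcl2 and Gimap5 also lost theirs at a ratio limit of 1.5 (0.21 and 0.101) and without cells with 2 or more Trbv segments (0.0565 and 0.07), and Gimap5 with sums of at least 8 (0.068). The 13 glycolysis genes tested gave no call, with a median of 0.26 and 0 of 13 also by DESeq2.

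Genes shared with gamma-delta T cells were higher in BALB/c mixed cells: 3 of 4 tested rose, Sox13, Tcrg-C2 and Tcrg-C4. Over all genes, 1.06% rose and 1.13% fell. Sox13, a factor of gamma-delta and innate-like T cells, had 82.8, 44.9, 3.46 and 8.72 CPM (log2 3.08, SE 0.45, adjusted p = 0.0203, edgeR; 0.123 without BALB/c 1). Tcrg-C2 had 369, 185, 73.9 and 79.6 CPM (log2 1.83, SE 0.31, adjusted p = 0.0319; 0.115 without BALB/c 1), with 77 of its 156 UMIs in BALB/c 1 in 1 cell, and Tcrg-C4 294, 300, 164 and 113 CPM (log2 1.12, SE 0.22, adjusted p = 0.0479; 0.300, 0.259 and 0.0552 without BALB/c 1, BALB/c 2 and B6 2). After thinning the adjusted p was 0.0671 for Sox13, 0.42 for Tcrg-C2 and 0.244 for Tcrg-C4, and at a ratio limit of 1.5 it was 0.0838, 0.203 and 0.0691. Sox13 and Tcrg-C4 also lost the call without cells with 2 or more Trbv segments (0.0627 and 0.0956), and Tcrg-C2 and Tcrg-C4 with sums of at least 8 (0.0972 and 0.0716). Among the lists of other cell types, Tnfrsf9 fell on the regulatory T cell list, as 1 of 2 tested (log2 -2.14, adjusted p = 0.04, edgeR). Its call was lost without BALB/c 1, without BALB/c 2 and without B6 2. It was also lost by DESeq2 (adjusted p = 0.258) and, in edgeR, after thinning (0.178) and at a ratio limit of 1.5 (0.0872). Without cells with 2 or more Trbv segments the adjusted p of Tnfrsf9 was 0.0844 (edgeR). Neither of 2 natural killer cell genes nor any of 4 T cell identity genes passed. No double-positive, B cell or myeloid marker was high enough to be tested. TCR-induced genes gave Pdcd1 higher and Tnfrsf9 lower of 15 tested, and early thymocyte factors gave Tcf7 higher and the X-linked Itm2a, named after its value was seen, lower of 11.

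The largest folds belonged to genes that were nearly silent in 1 strain. Trim12a (GRCm38 chromosome 7, 104299894 to 104315466), a relative of the antiviral TRIM5, had 0 UMIs in BALB/c mixed cells and 1007 in B6, at least 41.2-fold lower with the same limit; in BALB/c side cells it had at most 0.103 CPM. Coro2a had 1 UMI against 1633, a depth-corrected ratio of B6 to BALB/c of 201 (exact 95% interval 36.0 to 7926, counting error only); its call was lost without BALB/c 1 (adjusted p = 0.0675) and without BALB/c 2 (0.0916). Lgals3, galectin 3, had 11.8, 15.4, 140 and 164 CPM (log2 -3.44, SE 0.26, adjusted p = 0.0017, edgeR). Apol7e, with 2 UMIs against 484, and Padi2 completed the lower set. In the other direction, Gfra4, a growth factor receptor subunit, had 49.7, 33.7, 0 and 0.803 CPM (adjusted p = 0.00351, edgeR; 0.0659 without BALB/c 1), Rln3, the hormone relaxin 3, had 114, 84.2, 8.98 and 5.74 CPM, and Tpm3-rs7 and Scpep1 followed. Scpep1 lost its call without BALB/c 1 and without BALB/c 2. Reads of both strains were mapped to mm10, a genome of the B6 strain, per the submitters' processing notes. How that affects counts of BALB/c alleles was not tested.

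**Figure D5:**
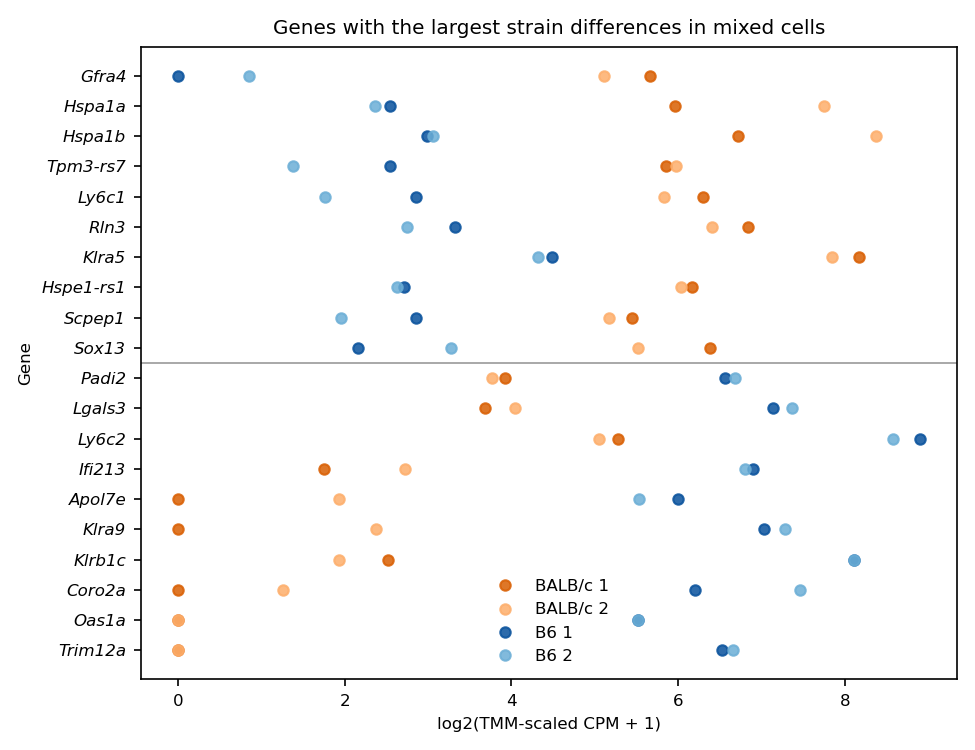
Level of the 20 genes with the largest called strain differences (vertical axis) in mixed cells as log2 of TMM-scaled CPM plus 1 (horizontal axis), with 1 point per library. The upper 10 genes are higher in both BALB/c libraries and the lower 10 in both B6 libraries. Genes were ranked only among calls at 20 CPM or more without overlap, so the lack of overlap follows from that limit.

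Most of these differences were found in the side classes too. Of the 178 genes called in mixed cells, 154 (86.5%) were called in the same direction among the 1081 calls of iNKT2-side cells (14.2% of those), and 102 (57.3%) among the 441 calls of iNKT1-side cells (23.1% of those). Those side calls came from 11474 genes tested on the iNKT2 side and 10633 on the iNKT1 side, so the iNKT2 side had the higher share of calls. The 3 classes come from the same 4 libraries, so they are not independent. Whether the strain effect differed between classes was tested as an interaction in edgeR with the library as a block.

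Against iNKT1-side cells, the strain effect differed for 367 of 10215 genes (3.59%), 160 (1.57%) higher and 207 (2.03%) lower in mixed cells. On the iNKT1 list 15 of 26 genes were lower by this test and none higher. Cxcr6 had 68.5, 63.5, 267 and 312 CPM in mixed cells but 682, 552, 361 and 443 in iNKT1-side cells, in CPM without TMM factors; the difference of the 2 strain effects was -2.67 (log2, SE 0.14, adjusted p = 2.95e-10, edgeR). In mixed cells Cxcr6 was lower in BALB/c, and on the iNKT1 side the BALB/c libraries were the higher ones, without passing the test (log2 0.67, adjusted p = 0.0611). Tbx21 differed by -1.30 (SE 0.21, adjusted p = 0.000607), since its iNKT1-side levels hardly differed between strains.

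Other genes also differed in strain effect, and for some it passed the test only on the iNKT1 side. Thy1 had 148, 71.5, 351 and 373 CPM in mixed cells and 557, 546, 527 and 555 in iNKT1-side cells, a difference of -1.83 (SE 0.17, adjusted p = 7.02e-07, edgeR). Ms4a4b, a tetraspan-like membrane protein, differed by -1.22, Gimap3 by -1.56 and Gramd3 by -2.55. In the other direction, Rgcc, a regulator of cell cycle, had 153, 70.1, 17.0 and 23.4 CPM in mixed cells and 9.51, 4.38, 19.6 and 22.7 in iNKT1-side cells, a difference of 4.06 (SE 0.26, adjusted p = 7.89e-09); 13 of its 25 UMIs in B6 1 were in 1 mixed cell. Ifi30, a lysosomal reductase, differed by 2.81, Klra5 by 2.20, Cd247, the CD3 zeta chain, by 1.49 and S100a11 by 0.70. Gramd3, Ifi30 and Il4 passed the strain test on the iNKT1 side (log2 1.68, -2.18 and -1.07, adjusted p = 0.00165, 0.00353 and 0.0149, edgeR). In mixed cells they did not (log2 -0.86, 0.60 and 0.09, adjusted p = 0.28, 0.32 and 0.909, edgeR). Il4 differed by 1.32 (SE 0.23, adjusted p = 0.0017; 0.124 without BALB/c 2). All 4 gamma-delta genes tested were higher by this test, and none of 4 against the iNKT2 side.

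Against iNKT2-side cells the strain effect differed for 111 of 11292 genes (0.983%), 76 (0.673%) higher and 35 (0.31%) lower in mixed cells. Here 11 of 26 iNKT1 genes were higher and 1 lower. Gimap3 had 119, 154, 379 and 359 CPM in mixed cells and 7.01, 11.6, 119 and 104 in iNKT2-side cells, a difference of 2.08 (SE 0.18, adjusted p = 3.82e-07, edgeR). The strain gap of Gimap3 in mixed cells was thus smaller than on the iNKT2 side. Ly6c1 differed by 4.30, Ccl5 by 3.61, Klra1 by 2.03 and Ccr10, a chemokine receptor, by 1.62. For Ccl5, 63.7% of the UMIs in BALB/c 1 were in 1 cell, and for Ly6c1 54.5%.

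Genes with a more negative strain effect than on the iNKT2 side included Id2 and Satb1. Id2 had 543, 622, 1262 and 1294 CPM in mixed cells and 574, 509, 777 and 809 in iNKT2-side cells, a difference of -0.59 (SE 0.09, adjusted p = 0.000893, edgeR). Satb1, a chromatin organiser of thymocytes, had 208, 247, 369 and 557 CPM against 312, 338, 339 and 521 (difference -0.64, SE 0.11, adjusted p = 0.00129). Both genes separated the strains more in mixed cells. Cxcr6 differed by -1.19, Ly6e by -0.59 and Slc28a2 by -1.57, which was lost without BALB/c 2, without B6 2 and by DESeq2 (adjusted p up to 0.178). The position of mixed cells between the sides also differed between strains, as the values for sum B show, and its part in these interactions was not tested.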

How the data were processed

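The authors deposited UMI counts per gene and barcode for each library, not normalized. Cell Ranger 7.1.0 and mm10 are named in the submitters' processing notes; the file headers give 6.0.0 for 3 libraries and 7.1.0 for B6 2. The counting of intron reads is not stated in the sources used here. Coordinates are from GENCODE vM21 (GRCm38), which holds the identifiers of 32158 of 32285 genes (99.6%). The members, lists and tests were chosen with earlier results of these data known.

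Doublets were not removed. Scrublet in scanpy 1.11.5 ranked all barcodes of a library, and the top 0.8% per 1000 barcodes (33, 34, 50 and 758) were left out as an alternative. Counts summed per library were tested with edgeR 4.0.16 (R 4.3.3; filterByExpr, TMM, glmQLFit, glmQLFTest); SE is the absolute log2 fold change over the square root of F. Shares were compared by exact permutation and have exact (Clopper-Pearson) 95% binomial intervals, which cover counting error only. Thinning drew 5000 UMIs per cell.

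Named genes were, per list, up to 4 of lowest p, plus a fixed set (Tbx21, Gata3, Il4, Ifng and an item not reported here); the 10 largest folds in each direction among calls at 20 CPM or more without overlap; and 5 per direction and interaction. Genes of the choice, TCR and immunoglobulin genes (except constant genes on a list), and H2, sex-linked and predicted genes were skipped. Alternatives were RLE factors, DESeq2 1.42.0, no low-count filter, each library left out, a replicate block, other thresholds and depths, and no likely doublets.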

Additional observations from a re-analysis of the deposited data

Results flagged for a closer look

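The strain effect of 367 genes differed between mixed and iNKT1-side cells, and that of 111 genes between mixed and iNKT2-side cells, each by an interaction test in edgeR over 8 library sums at an adjusted p of 0.05. For the genes named, the difference of the log2 strain effects (BALB/c over B6, mixed minus side) is given. Against the iNKT1 side it was 4.06 for Rgcc, 2.81 for Ifi30, 2.20 for Klra5, 1.49 for Cd247 and 0.70 for S100a11, and -2.67 for Cxcr6, -2.55 for Gramd3, -1.83 for Thy1, -1.56 for Gimap3 and -1.22 for Ms4a4b. Against the iNKT2 side it was 4.30 for Ly6c1, 3.61 for Ccl5, 2.08 for Gimap3, 2.03 for Klra1 and 1.62 for Ccr10, and -1.57 for Slc28a2, -1.19 for Cxcr6, -0.64 for Satb1 and -0.59 for both Ly6e (-0.5947) and Id2 (-0.5893). Gimap3 and Cxcr6 appear in both comparisons. Gimap3 has opposite signs in them, since its strain gap was larger than on the iNKT1 side and smaller than on the iNKT2 side. All except Slc28a2 kept their call in each of 7 alternatives or, for Rgcc, 6; Slc28a2 kept it in 4 of 7.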

How the results depend on the processing

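The lower share of mixed cells in BALB/c kept its sign in every alternative run. Leaving out 1 library gave -7.36 to -4.15 points over kept cells, -8.02 to -4.91 over cells with A+B of at least 10 and -7.65 to -4.77 after thinning. The share with 2 or more Trbv segments ran from -7.61 to 2.52 and changed sign without BALB/c 2 (2.45) and without B6 2 (2.52).

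The count of 178 strain calls was 49 to 932 with 1 library left out, 802 without a low-count filter, 99 without cells with 2 or more Trbv segments, 75 at a ratio limit of 1.5 and 72 for members chosen after thinning; fewer cells entered the last 3. The replicate number as a block gave 445, but the numbers do not pair the samples: the deviations of same-numbered libraries correlated at -0.0497. The interaction counts were 217 to 435 against the iNKT1 side with 1 library left out and 189 by DESeq2, and 83 to 160 against the iNKT2 side, with 42 by DESeq2 and 191 without the filter; the cause was not tested.

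Of 42 named calls, 19 passed without BALB/c 1, 24 without BALB/c 2 and all 42 without B6 1, and 16 passed in every alternative that tested them. Signs changed in genes that did not pass in the reported comparison. With 1 library left out, the log2 fold change ran from -1.68 to 0.74 for Aqp3, from -2.01 to 1.61 for Tyrobp (-0.83 without B6 2), from -0.13 to 0.22 for Cd3e and from -0.23 to 0.32 for Il4 (-0.02 without B6 2). Cd3e gave -0.0005045 without cells with 2 or more Trbv segments. After thinning, Egr1 gave -0.14, Pfkl -0.12, Ikzf2 -0.0057 and Il4 -0.47, and Il4 gave -0.0082 at sums of at least 8.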
